A study of Mus musculus with 3 samples.

Results

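Small nucleolar RNAs and small Cajal body RNAs were examined in mouse embryonic stem (ES) cells depleted of NUP153, a protein of the nuclear pore basket. The genes were taken by symbol, as every counted gene whose name starts with Snora, Snord or Scarna, which gave 119 of the 24421 genes counted. Of these 36 were Snora genes, 74 were Snord genes and 9 were Scarna genes. Of the 119, 100 averaged 10 reads or more across the libraries, namely 31 Snora, 62 Snord and 7 Scarna genes, and only these entered the comparisons.

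RNA-Seq was done on total RNA of the female ES cell line EL16.7 (strain F2:129S1/CastEiJx 129S1), depleted of ribosomal RNA with Ribo-Zero Gold, with single-end reads of 50 bases. There were 3 libraries, 1 from cells given a scrambled control shRNA, 1 from cells given shRNA-1 (NUP153 KD-1) and 1 from cells given shRNA-2 (NUP153 KD-2), each delivered by lentivirus and selected with 2 µg/ml puromycin for 2 days. All cultures were kept undifferentiated with LIF on γ-irradiated DR4 mouse embryonic fibroblasts, whose RNA can be present in each library. With 1 library per condition no difference below has a replicate check, and the 95% intervals cover counting error only.

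Read numbers are given throughout in the order control, KD-1, KD-2. Nup153 itself had 27870, 16451 and 11126 reads, a log2 ratio to control of -0.99 for KD-1 and of -1.43 for KD-2. The libraries held 72344726, 85258834 and 69839336 reads on genes. Here a log2 ratio always compares reads scaled by the upper quartile of each library, with 0.5 reads added, and a gene is called higher or lower when it differs more than 1.5-fold and its counting interval leaves out equality.

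Small nucleolar RNAs guide chemical modification of other RNAs by base pairing. C/D box RNAs (Snord) bring fibrillarin to sites of ribose methylation, and H/ACA box RNAs (Snora) bring dyskerin to sites of pseudouridylation, mostly in ribosomal RNA, while small Cajal body RNAs (Scarna) guide the same reactions on spliceosomal RNAs. In mammals most are cut out of the introns of host genes, many of which code for ribosomal proteins or are noncoding Snhg genes, and a few have promoters of their own.

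The symbols were checked against the sequences, read from GENCODE M21 transcripts on GRCm38, the build of the counts, for 118 of the 119 genes. The C box core TGATGA, searched on the RNA strand, was in 50 of 73 Snord sequences (68.5%), in 0 of 36 Snora sequences and in 2.65% of 4383 other GENCODE transcripts of like length. All 73 Snord sequences held the D box CTGA, against 40.3% of the other transcripts. This short motif was also in 19 of 36 Snora sequences (52.8%) and 8 of 9 Scarna sequences. The letters ACA stood before the last 3 bases in 30 of 36 Snora sequences (83.3%), in 0 Snord sequences and in 2.33% of the other transcripts. Of the 9 Scarna sequences 6 held TGATGA and 2 ended in ACA with 3 further bases.

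The sequences on which the results below turn most are those of RNAs that share a host gene but differed in direction in KD-2. Snord49b lies at chr11:62603079-62603150, Snord49a at chr11:62603450-62603521 and Snord65 at chr11:62604515-62604586, all on the plus strand between exons of 2410006H16Rik. Capitals mark the first TGATGA and the last CTGA.
Snord49a: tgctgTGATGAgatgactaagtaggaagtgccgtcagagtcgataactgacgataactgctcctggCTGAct
Snord49b: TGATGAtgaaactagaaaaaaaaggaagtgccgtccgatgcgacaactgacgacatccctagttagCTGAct
Snord65: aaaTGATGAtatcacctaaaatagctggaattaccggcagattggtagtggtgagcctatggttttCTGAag

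Snord49a and Snord49b had the same base at 46 of 72 positions without gaps, with a longest shared run of 13 bases, shorter than a read. None of the 50-base words of Snord49a, Snord49b or Snord65 occurred in another GENCODE transcript.

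From Snhg12, a noncoding host of 4 counted RNAs, Snora16a (chr4:132309464-132309600, plus strand) and Snora44 (chr4:132309941-132310069, plus strand) are shown because they lay at the ends of the range among RNAs of that host in KD-2. Capitals mark ACA before the last 3 bases, which the Snora44 transcript does not hold. All 88 of the 50-base words of Snora16a and all 80 of Snora44 also occur in Snhg12 transcripts, so reads on them cannot be told from those of the host by sequence. Scarna2 is shown because it was among the few RNAs higher in KD-2, as the stretch of its RefSeq record (chr3:108554342-108554402, minus strand), which covers 61 of the 414 bases of its GENCODE transcript.
Snora16a: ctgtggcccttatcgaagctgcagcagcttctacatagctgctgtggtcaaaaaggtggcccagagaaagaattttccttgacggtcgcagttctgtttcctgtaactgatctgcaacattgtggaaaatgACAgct
Snora44: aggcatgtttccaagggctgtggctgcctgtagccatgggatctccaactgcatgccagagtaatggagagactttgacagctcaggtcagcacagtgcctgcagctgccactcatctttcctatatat
Scarna2: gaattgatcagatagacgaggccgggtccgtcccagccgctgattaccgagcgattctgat

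Together the 119 genes took 139321, 163033 and 105471 reads. That was 0.193% of gene reads in control (Wilson 95% interval 0.192% to 0.194%), 0.191% in KD-1 (0.190% to 0.192%) and 0.151% in KD-2 (0.150% to 0.152%). Control and KD-1 were close, and KD-2 was lower than both. Snora genes held 0.0827%, 0.0789% and 0.0609% of gene reads in control, KD-1 and KD-2, Snord genes 0.0694%, 0.0731% and 0.0557%, and Scarna genes 0.0406%, 0.0393% and 0.0344%. The KD-2 share was the lowest of the 3 in each class. PCR copies are not independent molecules, so these intervals are the narrowest that counting allows.

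A few RNAs carried most of the reads, since the 10 with the most reads held 52.1% of the group's control reads. Levels between genes were compared as RPKM in control, the reads per kilobase of RefSeq record scaled to the gene reads of the library. Among C/D RNAs Snord34, a guide for large-subunit rRNA, had 1457 RPKM, ahead of Snord22, a C/D RNA that acts in small-subunit rRNA processing, with 688, Snord15b with 470, Snord32a with 443 and Snord100 with 406. Among H/ACA RNAs Snora61 had 846 RPKM, Snora74a 824, Snora78 725, Snora68 545 and Snora17 502. Scarna10, which guides modification of a spliceosomal RNA, had 2076 RPKM and Scarna9 1544, followed by Scarna13 with 393 and Scarna6 with 277. RefSeq records of some of these genes are shorter than the RNA, and with GENCODE lengths the same 5 Snora and the same 5 Snord genes came first, but Snora61 went from the first to the fifth place at 403 RPKM. Among Scarna genes Scarna9 then came first at 927 RPKM, Scarna10 stood at 453 and Scarna17 took the place of Scarna2 among the first 5, so the order at the top rests on the length used. The medians were 135 RPKM over 31 Snora genes, 60.1 over 62 Snord genes and 277 over 7 Scarna genes.

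No read was counted in any library for 14 genes, namely Snora19, Snora24, Snora26, Snora35, Snora36b, Snord116, Snord116l1, Snord116l2, Snord14a, Snord14c, Snord14d, Snord1a, Snord45c and Snord7. A count of 0 allows up to 3 reads, or 0.0415, 0.0352 and 0.0430 CPM of gene reads, where the gene can receive reads at all. Of the 14, 7 overlapped an exon of their host and 6 lay between exons, and Snord116 was not matched in the reference. Snord14c and Snord14d, copies of the C/D RNA U14 of small-subunit rRNA processing within Hspa8, had the same base at 84 of 86 positions. Their longest shared run was 46 bases, shorter than a read, while all 37 of the 50-base words of each also occur in Hspa8 transcripts. Snord116l1 and Snord116l2 shared all 45 of their 50-base words with other transcripts. A further 5 genes had reads but a mean below 10. Snord118, a C/D RNA that acts in large-subunit rRNA processing, had 13, 6 and 9 reads, Snord90 8, 9 and 8, Scarna3a 3, 6 and 15, Snord123 6, 7 and 8, and Scarna3b 2, 3 and 2. Just above the limit stood Snord67 with 14, 14 and 14 reads and Snord71 with 14, 21 and 11.

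In NUP153 KD-1 the group stood at the level of control. Of the 100 genes 51 lay below 0 and 49 above it, where 47% of all 16670 genes tested lay below 0. The median log2 ratio was -0.06 for Snora, 0.03 for Snord and -0.01 for Scarna genes, beside 0.02 for all genes, and single genes ran from -0.44 to 1.01. Only Snora34 was called higher and no gene was called lower, where 6.47% of all genes tested were called higher and 4.58% lower. Snora34, an RNA within Kansl2, had 12, 29 and 18 reads, a log2 ratio of 1.01 in KD-1 (95% counting interval 0.03 to 2.15). The highest value was therefore that of a gene with few reads, whose call was lost with DESeq2 size factors.

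In NUP153 KD-2 most of the group was lower than in control. The log2 ratio was below 0 for 92 of 100 genes, where 51.7% of all genes tested were below 0, and its median was -0.59, with quartiles at -0.79 and -0.30. Lower was called for 48 of 100 genes and higher for 3, where 8.6% of all genes tested were called lower and 14.9% higher. By class, lower was called for 17 of 31 Snora, 27 of 62 Snord and 4 of 7 Scarna genes, and higher for 0 Snora, 2 Snord and 1 Scarna gene. The medians were -0.65 for Snora, -0.52 for Snord and -0.64 for Scarna genes, beside -0.02 for all genes. On scaled reads KD-2 was the lowest of the 3 libraries for 91 of the 100 genes, control for 6 and KD-1 for 3.

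**Figure D1:**
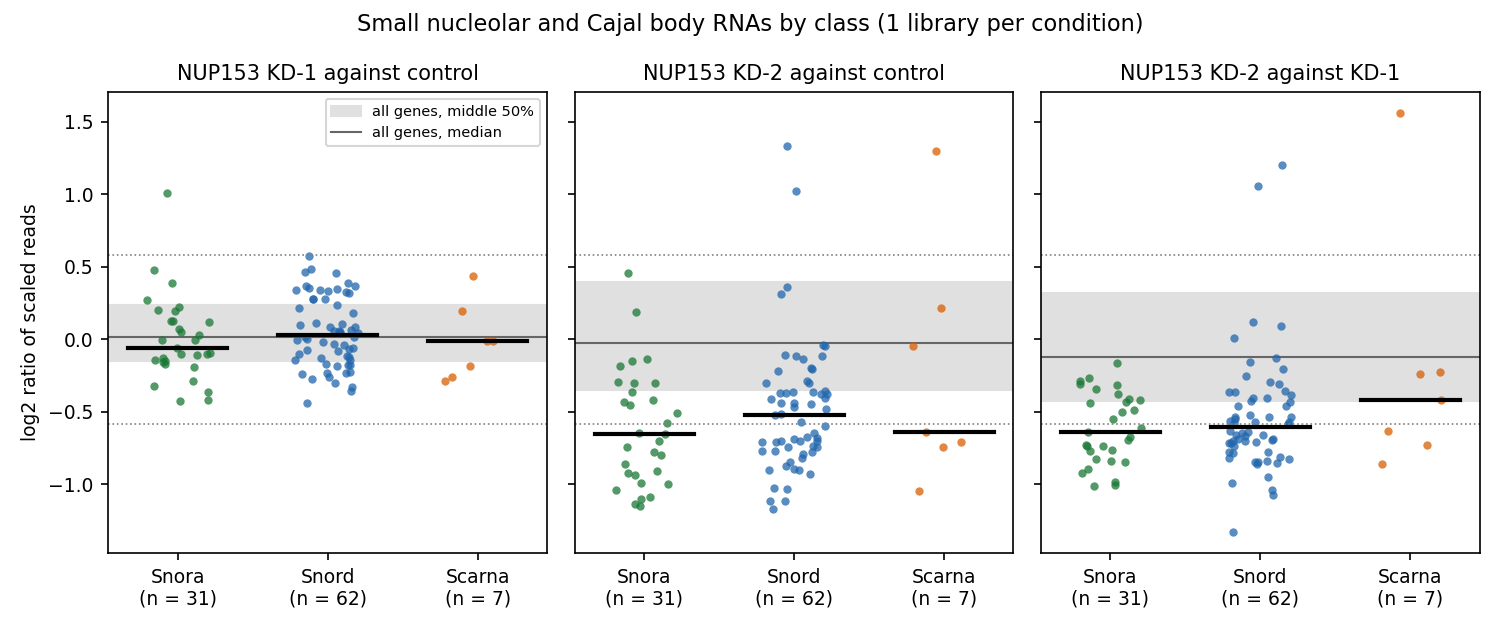
Log2 ratio of scaled reads (vertical axis) for each tested Snora, Snord and Scarna gene, by comparison. Points are genes, black bars are class medians, the grey line and band are the median and interquartile range of all genes tested, and dotted lines mark a 1.5-fold difference. In KD-1 the class medians lie between -0.06 and 0.03, and in KD-2 against control between -0.65 and -0.52.

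How far these counts carry depends on the spread between cultures, which 1 library per condition does not give. Scaling by library totals moved the median of all genes in KD-2 from -0.02 to 0.14 and left 29 genes called lower, beside 3.78% of all genes, and 83 of the 100 genes below 0 in place of 92. If replicate cultures varied by 20% (a fixed dispersion of 0.04), edgeR's likelihood ratio test called 0 of the 100 lower or higher in KD-2 than in control and, of all 16670 genes, 8 lower and 58 higher. At 10% (dispersion 0.01) it called 41 lower and 3 higher, beside 7.09% and 12.3% of all genes.

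KD-2 was also lower than KD-1. The log2 ratio of KD-2 to KD-1 was below 0 for 94 of 100 genes, against 58.9% of all genes tested, and for 31 of 31 Snora genes. Lower was called for 46 genes and higher for 3, against 12% and 15.1% of all genes. The medians were -0.64 for Snora, -0.60 for Snord and -0.42 for Scarna genes, beside -0.12 for all genes. Snord85 showed the lowest ratio, with 37, 61 and 22 reads and a log2 ratio of KD-2 to KD-1 of -1.33. Snord38a, with 39, 60 and 26 reads, followed at -1.07. For both, KD-1 was the highest library as well as KD-2 the lowest. With more reads, Snord93 had 369, 548 and 245 reads (-1.04), Snora30 235, 332 and 151 (-1.01) and Snora15 1229, 1685 and 772, a ratio of KD-2 to KD-1 of 0.499 on the linear scale.

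Taking both knockdown libraries against control in 1 test, with the spread estimated from KD-1 and KD-2 alone, left no call in the group. By edgeR's quasi-likelihood test 0 of 105 genes with a read passed an adjusted p of 0.05, 0 had an unadjusted p below 0.05, and DESeq2 also called 0. Snord49b had the smallest p in the group, 0.0715 unadjusted and 1.00 after adjustment by edgeR. Only 4 of 21164 genes (0.0189%) passed in that test, namely Lars2, Mir6236, Ipw and Taf7l, and 1.38% had an unadjusted p below 0.05.

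Of the 31 H/ACA RNAs 29 lay below 0 in KD-2. Snora16a had 999, 877 and 485 reads, a KD-2 log2 ratio to control of -1.15 (-1.31 to -0.99). Snora70, which lies in Rpl10 and guides pseudouridylation of small-subunit rRNA, had 865, 832 and 425 reads and a ratio of -1.13 (-1.30 to -0.96). Scaled for depth, both were below control in KD-1 as well, Snora16a at -0.42 (-0.55 to -0.28) and Snora70 at -0.28 (-0.42 to -0.15), short of the 1.5-fold limit. Among the 5 most abundant, Snora61 had 3793, 4424 and 2059 reads (-0.99), Snora68 3865, 4248 and 2179 (-0.93) and Snora17 4798, 4499 and 2588, all called lower. The other 2 of these 5 were lower but not called, Snora74a with 11803, 14320 and 10380 reads (-0.29) and Snora78 with 8233, 8749 and 6486 (-0.45). Values above 0 were found for Snora34 (0.46) and Snora47 (39, 64 and 48 reads, 0.19) only, both with intervals that include 0.

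Among the C/D RNAs Snord43, a small-subunit rRNA guide within Rpl3, was lowest in KD-2 against control, with 507, 465 and 242 reads and a log2 ratio of -1.17 (-1.40 to -0.95). Snord99, within Snhg12, had 975, 1046 and 485 reads (-1.11), and Snord1c 187, 181 and 93 (-1.11). In KD-1 the scaled ratios to control were -0.35 for Snord43 (-0.54 to -0.17), -0.13 for Snord99 and -0.28 for Snord1c, none of them called. Of the most abundant C/D RNAs 3 stood nearer to control. Snord34 had 6957, 7493 and 5626 reads (-0.41), Snord22 6273, 9260 and 5248 (-0.36) and Snord15b 4930, 7023 and 4359 (-0.28), none of them called, while Snord32a (2596, 2960 and 1631 reads, -0.78) and Snord100 (1996, 1978 and 1149 reads, -0.90) were called lower.

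Snord49b and Snord55 were the C/D RNAs called higher in KD-2. Snord49b had 325, 462 and 883 reads, with log2 ratios to control of 0.28 for KD-1 and 1.33 for KD-2 (1.15 to 1.52). Snord55, which guides methylation of large-subunit rRNA, had 28, 29 and 62 reads, with -0.18 in KD-1 and 1.03 in KD-2 (0.37 to 1.74). Snord55 rests on few reads, and Snord49b does not.

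The small Cajal body RNAs did not share 1 direction. Scarna10 had 10661, 10237 and 7044 reads, with log2 ratios to control of -0.29 for KD-1 and -0.70 for KD-2. Scarna9, a guide for U2 spliceosomal RNA, had 4692, 5464 and 3242 reads (-0.01 and -0.64), and Scarna6 4977, 5797 and 3213 (-0.01 and -0.74). Scarna8 had 33, 34 and 17 reads (-0.19 and -1.04). These 4 were called lower in KD-2 than in control. Scarna13, within Snhg10, had 7809, 10487 and 8158 reads (0.20 and -0.04), and Scarna17 had 535, 851 and 669 (0.44 and 0.22), neither of them called. Scarna2, a guide for U2 spliceosomal RNA that is transcribed as its own gene, had 624, 610 and 1656 reads, with -0.26 in KD-1 and 1.30 in KD-2 (1.17 to 1.44). At an assumed dispersion of 0.04 Scarna2 was called higher in KD-2 than in KD-1 (log2 ratio 1.56), 1 of the 100 genes beside 3.67% of all genes. With 7 genes the class median moves readily, to -0.34 over genes averaging 100 reads or more and to -0.11 when Scarna3a and Scarna3b were added.

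**Figure D2:**
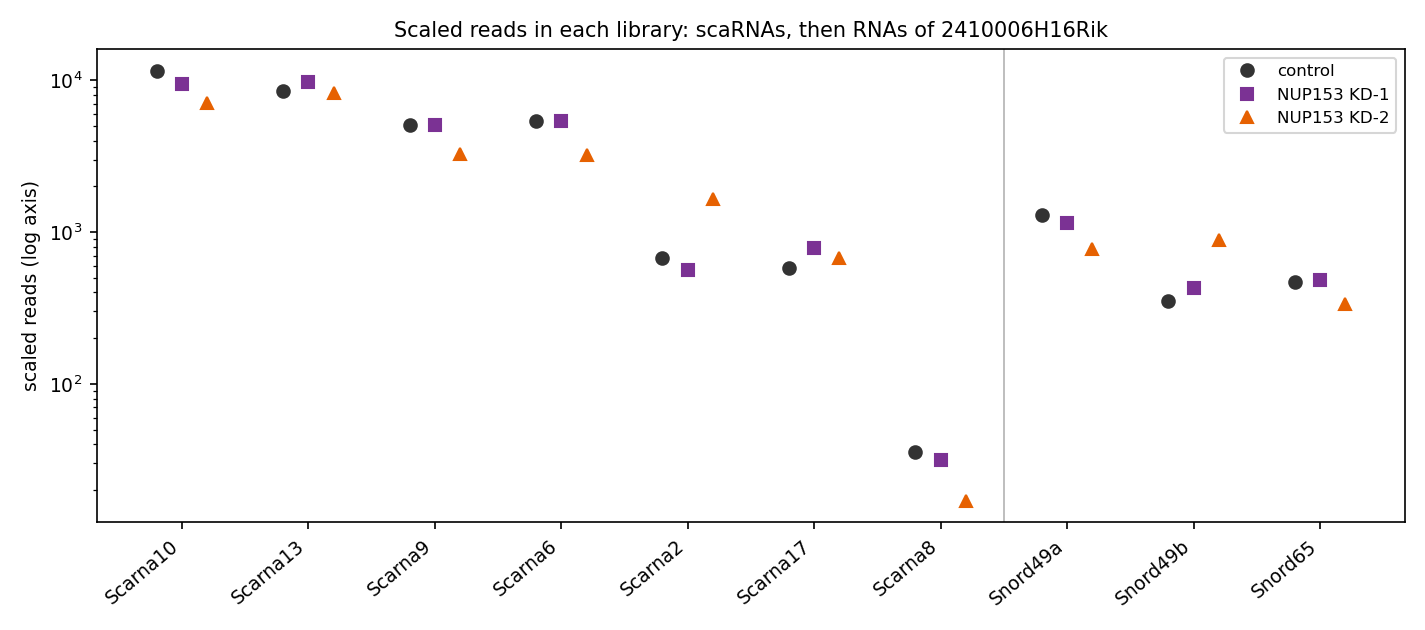
Scaled reads (vertical log axis) in the control, KD-1 and KD-2 libraries, 1 point per library, for the 7 tested small Cajal body RNAs, then for the 3 RNAs of 2410006H16Rik. Scarna2 and Snord49b are highest in KD-2, while Snord49a and Snord65 are lowest there.

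Most of the RNAs sit inside another counted gene, which allows them to be set beside their hosts. A counted host on the same strand was found for 92 of the 100, in 68 hosts. In KD-1 the hosts had a median log2 ratio of 0.00 and their RNAs of -0.01. In KD-2 the hosts had a median of -0.41, with 60 of 68 below 0, 11 called lower and 1 called higher, and their RNAs a median of -0.62. Beside this, 8.6% of all genes tested were called lower, 14.9% higher and 51.7% lay below 0, and genes averaging at least 1000 reads had a median of -0.16. The RNA's ratio was below that of its host in 65 of 92 cases, and the median difference was -0.25. Across the 92 RNAs Pearson's r between RNA and host was 0.31 for KD-1 and 0.29 for KD-2, a description over points that share libraries and hosts.

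Hosts with several RNAs showed how far these differed among themselves. The host 2410006H16Rik had log2 ratios of 0.01 for KD-1 and 0.00 for KD-2. Its Snord49a, a large-subunit rRNA guide, had 1194, 1244 and 769 reads and -0.74 in KD-2, and its Snord65, a small-subunit rRNA guide, had 432, 521 and 334 reads and -0.48, while its Snord49b had 1.33. Their sequences, printed above, carry the same boxes. In Snhg12, at -0.86, Snora16a had -1.15, Snord99 -1.11 and Snora61 -0.99, all called lower, and Snora44 had 1843, 2469 and 1752 reads and -0.18. The 4 RNAs of Rpl13a, itself at -0.21, ran from -0.78 for Snord32a to -0.11 for Snord33.

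Some hosts code for parts of the ribosome or of the small nucleolar ribonucleoproteins themselves. Rpl3, at -0.41 in KD-2, held Snord43 (-1.17) and Snord83b, with 1441, 1595 and 815 reads (-0.93). Rps12, at -0.51, held Snora33, with 993, 866 and 521 reads (-1.04), and Snord100 (-0.90). In each pair both RNAs were called lower in KD-2 while the host was not. Nop58, a C/D core protein gene at -0.51, held Snord70, with 186, 213 and 109 reads (-0.88, called lower), and Snord11, with 61, 90 and 57 (-0.20, not called). Nop56, another C/D core protein gene, at -0.41, held Snord110, with 221, 210 and 143 reads (-0.73, called lower), and Snord57, with 517, 735 and 411 (-0.44, not called). Ncl, which codes for nucleolin, at -0.50, held Snora75, with 1247, 1337 and 741 reads (-0.86, called lower), and Snord82, with 480, 637 and 401 (-0.37, not called). Each of these 3 hosts thus held an RNA on either side of the 1.5-fold limit.

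By the spans of GENCODE M21, 5 of the 100 RNAs lay outside any annotated gene on their strand, and they differed in direction. Host spans of other annotations were not searched. Snora17 (4798, 4499 and 2588 reads) and Snora43, with 1658, 1754 and 952 reads (-0.91 in KD-2), were called lower. Snord104 had 1506, 2422 and 1226 reads, with 0.46 for KD-1 and -0.40 for KD-2, called lower in KD-2 against KD-1 but not against control. Scarna17 was not called and Scarna2 was called higher in KD-2.

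Position, host type and level were compared within the group. RNAs that overlap a host exon had 21 of 46 called lower in KD-2 and a median of -0.57. For 39 of these 46 every 50-base word also occurs in another GENCODE transcript, for 5 a part of the words does and for 2 none does, and reads on shared words cannot be told apart. Those between exons had 25 of 49 called lower and a median of -0.64. RNAs of 22 ribosomal protein hosts had 17 of 31 called lower and a median of -0.65, and RNAs of other counted hosts 28 of 61 and -0.52. Of the 8 without a counted host 3 were called lower and 1, Scarna2, higher. Beside these splits, 8.6% of all genes tested were called lower and 14.9% higher, with a median of -0.02. By level, lower was called for 5 of 22 RNAs with a mean of 10 to 100 reads, 23 of 43 with 100 to 1000 and 20 of 35 with at least 1000, where the shares of all genes were 8.30%, 7.98% and 9.12%. Across the 100 RNAs Pearson's r of the KD-2 ratio with GC content was 0.24 and with transcript length 0.22.

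Other short genes were set beside the group. Of 158 tested genes with records under 300 bases outside the group, 31 were called lower in KD-2 (19.6%) and 12 higher, with a median of -0.28. The 134 of them with Mir symbols had a median of -0.35. The 24 others had a median of 0.03 and ran from -0.74 to 1.91. The group was set by symbol alone, so any small nucleolar RNAs under other symbols were left among these short genes. Rmrp, the RNA of the pre-rRNA processing enzyme RNase MRP, was picked after its values were seen and had 300662, 454056 and 1084311 reads, with log2 ratios to control of 0.37 for KD-1 and 1.74 for KD-2. Terc, the telomerase RNA, which carries an H/ACA domain, had 3252, 4681 and 5249 reads (0.30 and 0.58), close to the 1.5-fold limit but not past it.

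The proteins that make and carry these RNAs were read from lists of known factors. Of the C/D core proteins Fbl, Nop56, Nop58 and Nhp2l1, 0 of 4 were called in either knockdown, with a median log2 ratio of -0.02 for KD-1 and -0.46 for KD-2. Of the H/ACA core proteins 2 of 4 were called lower in KD-2, Dkc1, the pseudouridine synthase dyskerin (46854, 54493 and 31578 reads, -0.68), and Nop10 (14486, 15490 and 9872 reads, -0.66). Of 9 assembly factors 1 was called lower in KD-2, Naf1 (1631, 1992 and 1145 reads, -0.62), and the median was -0.33. Of 9 Cajal body and nucleolar proteins 1 was called lower, Npm1 (435276, 450256 and 260490 reads, -0.85), with a median of -0.41, and Coil, the marker protein of Cajal bodies, had 4232, 5644 and 4098 reads (-0.15). Of 7 processing factors 0 were called and the median was -0.43. None of these proteins was called in KD-1, and 32 of the 33 lay below 0 in KD-2, all but Pih1d1 (0.29), with 4 called lower. Over all genes tested 8.6% were called lower and 51.7% lay below 0, and genes averaging at least 1000 reads had a KD-2 median of -0.16 with 9.12% called lower. Among 15 tested noncoding host genes 9 were called lower in KD-2, among them Gas5 (43448, 48299 and 25767 reads, -0.86) and Snhg3 (6073, 5665 and 3388 reads, -0.95), and Ipw (2.25) and Snhg20 (0.64) were called higher.

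Fibroblast markers differed from control in KD-1 as well as in KD-2, in opposite directions. The 12 fibroblast genes of the feeder list summed to 107603, 52272 and 205463 scaled reads, with 7 called lower in KD-1 and 10 called higher in KD-2, and with medians of -0.73 and 0.80. Of these sums Col3a1 alone held 59031, 23540 and 114450 scaled reads. The 12 pluripotency genes, all detected in each library, summed to 389468, 421300 and 283944, with 1 called higher in KD-1, and 3 called lower (Zfp42, Dppa4 and Tdgf1) and 1 higher (Utf1) in KD-2, where their median was -0.41. Over all genes tested 6.47% were called higher and 4.58% lower in KD-1, and 14.9% higher and 8.6% lower in KD-2. In KD-1, where the feeder sum was below control, the RNAs stood at the control level, and in KD-2, where it was above control, most were lower. The part of feeder RNA in the KD-2 result was not tested. In bulk RNA fewer ES cells and less of an RNA per cell cannot be told apart, nor can an effect of shRNA-2 and that of its single culture.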

How the data were processed

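The data were 3 RNA-Seq libraries of EL16.7 ES cells (control, NUP153 KD-1, NUP153 KD-2), for which the authors deposited raw counts per gene. Per the study's methods and processing notes, reads were trimmed with Trim Galore 0.4.1, mapped to mm10 with TopHat2 2.1.1 and counted on UCSC known genes at a mapping quality above 30. The notes name HTSeq and the methods another counter, and the counting strand is not given in the sources used here. Such counting drops reads that map equally well to several places and reads shared by overlapping genes (1.45% to 1.65% ambiguous), both of which affect short RNAs inside hosts. The 5 summary lines stayed out of library sizes and tests, and reads on no gene or ambiguous between genes were together 23.0% to 25.6%. A library for total RNA does not separate mature small RNAs from precursors.

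The members and lists were chosen with earlier results of these data known. From the deposited counts, log2 ratios used upper-quartile scaling over genes with a read and 0.5 added reads, with exact conditional binomial (Clopper-Pearson) 95% intervals, on genes averaging 10 reads or more. Calls needed more than 1.5-fold and an interval without equality. Both knockdowns together were tested by edgeR 4.0.16 quasi-likelihood with TMM in R 4.3.3 (1 residual degree of freedom), with Benjamini-Hochberg adjustment, and by DESeq2 1.42.0. These tests were checked on simulated data in which both knockdowns changed alike, which does not cover a difference in KD-2 alone. Named genes were, per class, the 5 highest in control, up to 5 called with the largest difference each way per comparison, all Scarna genes, the U14, Snord118 and same-host sets and lists of known factors. Positions came from RefSeq GRCm38.p6 and GENCODE M21, where the host is the smallest counted gene on the same strand that contains the RNA. Alternatives were TMM, DESeq2 size factors, library totals, other limits on reads, fold and added reads, and fixed dispersions. Values of a further host gene are not reported here.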

Additional observations from a re-analysis of the deposited data

How the results depend on the processing

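Under all alternatives tried the class medians in KD-2 stayed below 0, against control and against KD-1, and 82 of the 106 recomputed values for calls and medians stayed within the set tolerance (0.1 on the log2 scale for a median, 1.5 times for a count). With library totals the medians in KD-2 against control were -0.49 (Snora), -0.36 (Snord) and -0.48 (Scarna), and against KD-1 -0.47, -0.44 and -0.25. DESeq2 size factors gave -0.54, -0.50 and -0.31 against KD-1. A mean of at least 100 reads gave -0.64 for Snord and -0.34 for Scarna against control, and a mean of at least 1 read -0.11 for Scarna. Library totals left 29 genes lower in KD-2 than in control and 24 lower than in KD-1, beside 3.78% and 5.85% of all genes, and a fold above 2 left 11 and 5, beside 1.61% and 2.83%. At a dispersion of 0.04 both counts of lower genes were 0 (all genes 0.048% and 0.468%), the counts higher in KD-2 were 0 against control (0.348%) and 1 against KD-1 (3.67%), and the count higher in KD-1 was 0, as it was at 0.01, with DESeq2 size factors and at a mean of at least 100 reads. The cause of these shifts was not tested beyond the settings themselves. No paired analysis was possible because each condition has 1 library and the labels give no shared replicate numbers, and no library could be left out for the same reason.

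Calls in genes with few reads are limited by depth, and the spread between cultures is unknown for every value.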
